A study of Mus musculus with 6 samples.

Results

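Acetyl groups are added to lysines of histones and other proteins by acetyltransferases, removed by histone deacetylases (HDACs) and bound by bromodomain proteins. The 46 genes described here encode these enzymes and readers, with some of their scaffolds. They were chosen by name from the 55421 genes of the table: the numbered *Hdac* and *Kat* genes, the numbered *Brd* genes, *Brpf1* to *Brpf3*, *Baz1a* to *Baz2b*, *Ing1* to *Ing5*, *Ncoa1* to *Ncoa3*, and *Ep300*, *Crebbp*, *Ep400*, *Trrap*, *Brwd1* and *Phip*. All 46 were among the 17640 genes that were tested, having a mean of at least 10 normalized read counts.

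Activated B cells from 3 WT mice were compared by RNA-seq with those from 3 hnRNPL-deficient mice, to ask what the RNA-binding protein hnRNPL contributes to gene expression early in activation. Splenic cells were cultured with IL-4 at 5 ng/ml and LPS at 5 μg/ml and taken after 24 h, when GFP+ cells were sorted and polyA RNA was sequenced. Mice of both groups carried CD21-cre and the Rosa mT/mG reporter, and hnRNPL-deficient mice were in addition Hnrnpl F/F. Mice were on a C57BL6/J background and were older than 6 weeks. The study used males and females by availability, and the sex behind each library was not given. CD21-cre acts mostly in mature peripheral B cells, and GFP marks the cells in which Cre was active, so the data cover only B cells that had recombined the reporter. The culture contained a mitogen and a cytokine, and no resting cells were included in these libraries.

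Acetyltransferases of several families act in B cells. CBP and p300, the products of *Crebbp* and *Ep300*, are related coactivators that acetylate enhancer and promoter histones, and *CREBBP* is a gene often mutated in B cell lymphomas that arise from germinal centers. GCN5 and PCAF (*Kat2a*, *Kat2b*) work within large coactivator complexes, and some of the MYST enzymes (*Kat5*, *Kat6a*, *Kat6b*, *Kat7*, *Kat8*) work with BRPF or ING scaffolds. HDACs oppose them, with the class I enzymes in nuclear co-repressor complexes and the class IIa enzymes shuttling between nucleus and cytoplasm. Bromodomain proteins bind acetylated lysines and carry transcription machinery to them. hnRNPL binds CA-rich RNA and is known as a regulator of splicing.

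The CA-rich sites of *Crebbp*, *Baz1b* and *Kat6b*, which passed the test, and of *Ep300*, the relative of *Crebbp*, are shown first, since hnRNPL is known to bind such sequence. *Hdac11*, which also passed, had no match. ACACACA and ACACAAA, searched on the transcript strand only, were looked for in the longest protein-coding transcript of each gene in GENCODE M21 (GRCm38), where overlapping matches run together, and matched bases are in capitals. *Crebbp* had matches in exon 30 of 31, in exon 31 within the coding sequence, and in exon 31 within the 3′ UTR. The *Baz1b* match was in the coding part of exon 2 of 19, the *Ep300* match was in the coding part of exon 4 of 31, and *Kat6b* had matches in the 5′ UTR in exon 1 and in the coding part of exon 17 of 17. The positions are chr16:4087750-4087776, chr16:4086154-4086180 and chr16:4083288-4083314 on the minus strand for *Crebbp*. On the plus strand they are chr5:135196535-135196561 for *Baz1b*, chr14:21500919-21500945 and chr14:21669367-21669395 for *Kat6b*, and chr15:81610419-81610445 for *Ep300*.
Crebbp exon 30: gtggagctgcACACACAgggccaggac
Crebbp exon 31, coding: aattgctacaACACAAAgagccacacc
Crebbp exon 31, 3′ UTR: gtacacacccACACACAtctatctata
Baz1b exon 2: cagtcagctaACACACAaggaggcctg
Kat6b exon 1: caacagggggACACAAAatggcggcgg
Kat6b exon 17: gcagaactatACACACACAgaccaaagtc
Ep300 exon 4: gttctggagcACACACAgctgatccag
Such a match was no mark of the members. It was found in 43.5% of the 46 and in 45.2% of the 11532 tested genes with a protein-coding transcript, although the members' transcripts were longer, with a median of 4741.5 against 3069 bases. *Kat6a*, a member that did not pass the test, held 11 copies of ACACACA and 1 of ACACAAA, more than the 3 matches in *Crebbp*. A match is only a run of letters, introns were not searched, and binding was not measured here. Whether a match had a part in any change of a gene was not tested.

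Promoters of the pair of members that fell and of *Ep300* are shown for their sequence make-up (RefSeq, GRCm38.p6, 250 bases before to 50 after the start). GC boxes (GGGCGG) and CCAAT boxes (CCAAT), searched on both strands, are in capitals. The windows are chr16:4213355-4213654 on the minus strand, chr5:135187073-135187372 on the plus strand and chr15:81585964-81586263 on the plus strand.
Crebbp: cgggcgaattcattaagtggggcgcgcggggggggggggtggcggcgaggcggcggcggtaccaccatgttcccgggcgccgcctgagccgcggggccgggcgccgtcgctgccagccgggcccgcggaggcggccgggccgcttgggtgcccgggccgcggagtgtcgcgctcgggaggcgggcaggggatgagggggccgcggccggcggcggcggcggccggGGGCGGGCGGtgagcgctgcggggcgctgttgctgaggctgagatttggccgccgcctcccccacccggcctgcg
Baz1b: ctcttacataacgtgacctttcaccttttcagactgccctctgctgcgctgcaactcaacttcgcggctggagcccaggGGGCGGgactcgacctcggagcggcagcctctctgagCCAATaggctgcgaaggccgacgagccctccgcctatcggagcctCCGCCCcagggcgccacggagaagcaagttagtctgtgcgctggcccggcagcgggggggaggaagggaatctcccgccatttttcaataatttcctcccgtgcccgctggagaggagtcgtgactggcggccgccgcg
Ep300: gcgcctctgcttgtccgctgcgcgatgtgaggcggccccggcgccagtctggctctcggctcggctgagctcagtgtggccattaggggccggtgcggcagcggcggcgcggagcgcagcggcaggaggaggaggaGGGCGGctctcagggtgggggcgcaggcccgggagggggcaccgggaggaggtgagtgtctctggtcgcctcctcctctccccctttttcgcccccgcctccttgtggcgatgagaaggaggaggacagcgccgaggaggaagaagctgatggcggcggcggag
All 3 were richer in GC than the median promoter (52.7% GC and 7 CpG), with 82% GC and 49 CpG for *Crebbp*, 64.7% and 27 for *Baz1b*, and 72.3% and 30 for *Ep300*. *Crebbp* had 2 GC boxes, which overlap, *Baz1b* had 2 GC boxes and 1 CCAAT box, and *Ep300* had 1 GC box. GC boxes were present in 35.7% and CCAAT boxes in 37.4% of all 32851 promoters. The promoter table had rows for 37 of the 46 members. Most of these rows were also above the median GC and held a GC box, so neither was particular to the 3 shown.

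Libraries held between 40395186 and 75180749 reads on genes, with hnRNPL-deficient library 3 the shallowest. *Hnrnpl*, the targeted gene, had 24371, 25579.7 and 24174 normalized read counts in WT and 2178, 1519 and 1297 in hnRNPL-deficient libraries, which is 6.74% of the WT mean. B cell markers were high in every library, with a sum over 8 genes of 278668 to 356794 in WT and 273445 to 323308 in hnRNPL-deficient cells. Of the markers of other cells, 5 of 6 T cell, 4 of 4 NK cell, 4 of 4 neutrophil, 4 of 6 myeloid and 4 of 6 erythroid genes had a mean under 10, and *Ncr1*, *Elane*, *S100a8* and *S100a9* were at 0 in all libraries. The summed T cell markers ranged from 19.7 to 27.7 in WT and from 28.3 to 38.4 in hnRNPL-deficient cells. The summed myeloid markers were 260.0 to 331 in WT and 1239 to 1384 in hnRNPL-deficient libraries, with *Adgre1* alone at 236 to 315 and 1217 to 1369. Most of the difference in the myeloid sum was thus that of 1 gene, *Adgre1*, and not of the list as a whole. The summed erythroid markers were 17.6 to 38.3 against 55.0 to 84.8. The summed plasma cell markers were 33957 to 39571 in WT and 33296 to 36361 in hnRNPL-deficient cells. Of the 5 plasma cell genes in that sum, *Jchain* fell, from 117, 108.9 and 26.0 to 23.4, 7.07 and 13.7 (log2 fold change -2.31, adjusted p = 0.0509, limma). The part of these markers in the results below was not tested.

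Few of the 46 genes changed. With limma on log2(normalized count + 1), at a Benjamini-Hochberg adjusted p under 0.1 over all tested genes and at least 1.5-fold, 2 members rose (*Kat6b* and *Hdac11*) and 2 fell (*Crebbp* and *Baz1b*). Over all tested genes 7.28% were called higher and 4.08% lower, so the members' share of 4.35% in each direction was below or near that background. Without the fold minimum, 5 members were higher, against 10.0% of all tested genes, and 2 were lower, against 7.97%. These 5 were *Kat6b*, *Hdac11*, *Hdac9*, *Hdac8* and *Hdac1*. In bulk RNA, fewer cells expressing a gene and less of its RNA per cell cannot be told apart.

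**Figure D1:**
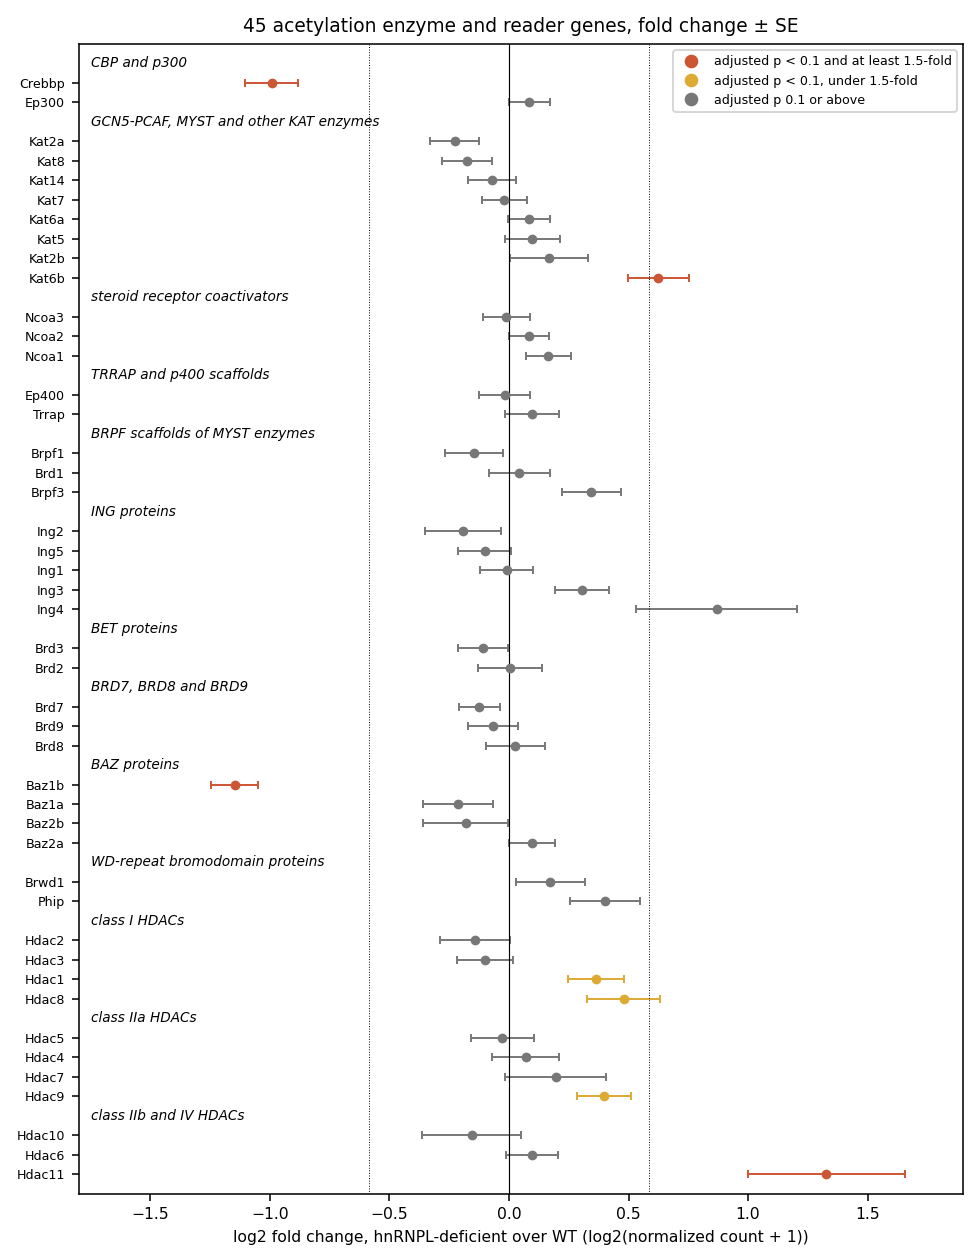
Log2 fold change (x axis, hnRNPL-deficient over WT) of 45 of the 46 genes, grouped by role, with bars of 1 standard error (SE) and dotted lines at 1.5-fold. Most points lie near 0, with *Crebbp* and *Baz1b* far to the left and *Hdac11* and *Kat6b* to the right.

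The fold changes of the members were also small. The median absolute log2 fold change was 0.13 over the 46 members and 0.28 over all tested genes, and 71.7% of members lay within 0.2 of 0, against 38.0% of all. The members' median standard error of 0.114 was smaller than the 0.189 over all genes. Of the 39 members that did not reach an adjusted p under 0.1, 34 had a 95% interval that stayed inside 1.5-fold in either direction. The other 5 were *Brpf3*, *Ing4*, *Phip*, *Hdac7* and *Hdac10*, for which a change of that size was within the interval. All 3 hnRNPL-deficient libraries were above all WT libraries for 13 members, or 28.3%, against 17.7% of all tested genes. They were below for 5 members, or 10.9%, against 16.3%.

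*Crebbp*, which encodes the acetyltransferase CBP (chromosome 16, 4081328 to 4213997, minus strand, GRCm38), fell to 50.5% of its WT level. It had 31075, 29305 and 30368 normalized read counts in WT, against 13293, 15727 and 16775 in hnRNPL-deficient cells. The groups did not overlap, and the highest hnRNPL-deficient library was well under the lowest WT one. This gave a log2 fold change of -0.99 (standard error, SE, 0.109, adjusted p = 0.00148, limma). It ranged from -1.06 to -0.90 with each library left out in turn, and *Crebbp* was called in all 20 alternative fits at these thresholds, though not at 2-fold.

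*Ep300*, which encodes the related coactivator p300 (chromosome 15, 81585351 to 81652077), had 15582, 16783 and 16201 normalized read counts in WT and 17117, 17553 and 16837 in hnRNPL-deficient cells. Every hnRNPL-deficient library was above every WT one, but by little. The log2 fold change of 0.09 did not pass (SE 0.086, 95% interval -0.11 to 0.28, adjusted p = 0.558, limma). The ratio of *Crebbp* to *Ep300* read counts was therefore lower in every hnRNPL-deficient library, by 1.08 on the log2 scale, from 0.90 ± 0.096 to -0.18 ± 0.180 (SD, n = 3 each). Per kilobase of exon, *Crebbp* made up 66.3% ± 1.49 of the summed *Crebbp* and *Ep300* level in WT, but 48.3% ± 3.12 in hnRNPL-deficient cells (SD, n = 3). The summed level per kilobase itself was 3368 ± 24.7 in WT against 2330.3 ± 130.0 in hnRNPL-deficient cells, or 69.2%. Both differences had an exact two-sided permutation p of 0.1, the smallest that 3 against 3 libraries can give. With the length of the longest coding transcript in place of all exons, the share was 62.3% ± 1.56 and 43.9% ± 3.07.

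**Figure D2:**
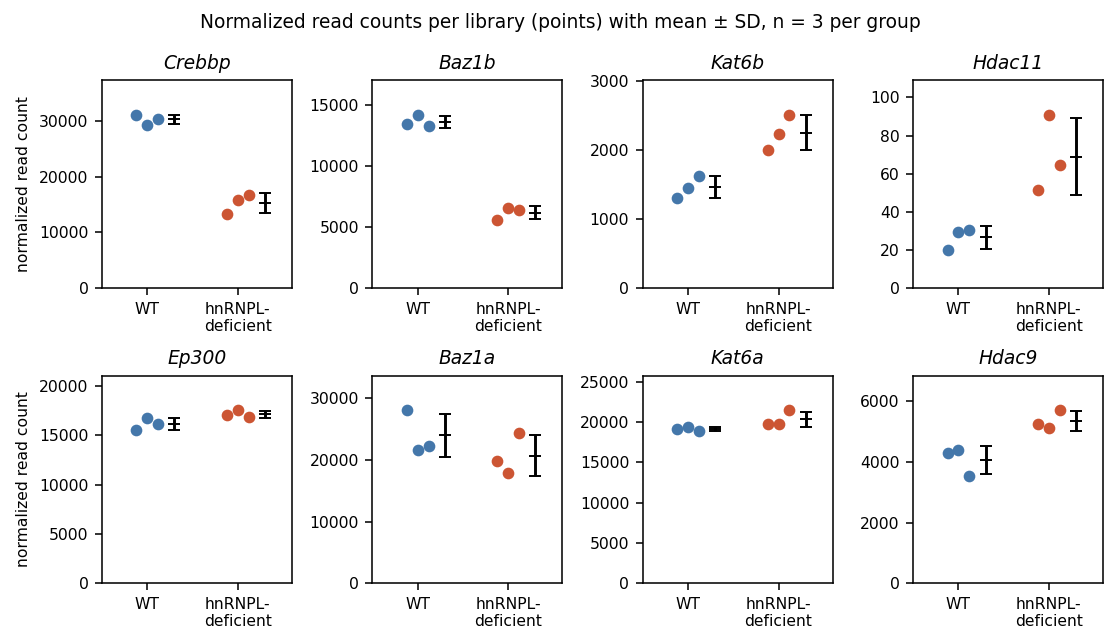
Normalized read counts (y axis, starting at 0) in each library for the 4 called members (top) and for 4 comparison genes (bottom), with mean ± SD, n = 3 per group. *Crebbp* and *Baz1b* are lower and *Kat6b* and *Hdac11* higher in every hnRNPL-deficient library, while *Ep300*, *Baz1a* and *Kat6a* did not pass the test.

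Among the other acetyltransferases, only *Kat6b* passed both thresholds. *Kat6b* (MORF, a MYST enzyme, chromosome 14, 21481434 to 21672478, plus strand) had 1302, 1443 and 1623 normalized read counts in WT and 2003, 2231 and 2504 in hnRNPL-deficient cells. The groups were apart, with all hnRNPL-deficient libraries above all WT libraries. This gave a log2 fold change of 0.63 (SE 0.129, adjusted p = 0.0188, limma), just past 1.5-fold. Leaving out WT library 1 gave 0.55 and leaving out hnRNPL-deficient library 3 gave 0.54, under the 1.5-fold limit in both cases, with limma adjusted p of 0.0432 and 0.0510.

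*Kat6a* (MOZ), the relative of *Kat6b*, was the most abundant enzyme of this group per kilobase, at 2089 ± 28.3 in WT, against 86.5 ± 9.55 for *Kat6b*. It had 19182, 19429.6 and 18911 normalized read counts in WT and 19724, 19787 and 21463 in hnRNPL-deficient cells, for a log2 fold change of 0.08 (adjusted p = 0.579, limma). *Kat6b* thus remained the minor gene of the pair on this scale, at 3.98% ± 0.457 of their summed level per kilobase in WT, against 5.68% ± 0.381 in hnRNPL-deficient cells (exact permutation p = 0.1, n = 3 each). The remaining enzymes were *Kat2a*, *Kat2b*, *Kat5* (TIP60), *Kat7* (HBO1), *Kat8* (MOF) and *Kat14*, and their log2 fold changes ranged from -0.23 to 0.17. None passed the test. *Kat2a* (GCN5) was lower in all 3 hnRNPL-deficient libraries, with a log2 fold change of -0.23 (95% interval -0.46 to 0.01, adjusted p = 0.191, limma).

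The coactivators and scaffolds of the acetyltransferases differed little between the groups. *Ncoa3*, the most abundant of the steroid receptor coactivators, had 17872, 19694 and 20070.5 normalized read counts in WT and 19702, 19995 and 17531 in hnRNPL-deficient cells. The groups overlapped, and the log2 fold changes of *Ncoa1*, *Ncoa2* and *Ncoa3* were 0.16, 0.08 and -0.01. *Ep400*, a chromatin remodeler of the TIP60 complex, had 15014, 17651 and 17762 in WT and 15364, 17905 and 16455 in hnRNPL-deficient cells. Its log2 fold change was -0.02 and that of *Trrap*, the scaffold shared by several acetyltransferase complexes, was 0.10. The 95% intervals of these 5 genes stayed within 1.5-fold.

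BRPF proteins hold some MYST enzymes to chromatin. *Brpf1* had 2942, 3521 and 3338 normalized read counts in WT and 2916, 3312 and 2639.9 in hnRNPL-deficient cells, with overlapping groups. *Brpf3* did not overlap, with 1559.7, 1912 and 1830.0 for WT, against 2226, 2475 and 2029 in hnRNPL-deficient cells, but its log2 fold change of 0.34 did not pass (95% interval 0.06 to 0.63, adjusted p = 0.113, limma). The log2 ratio of *Brpf1* to *Brpf3* varied little within groups, at 0.89 ± 0.025 for WT libraries and 0.40 ± 0.021 for hnRNPL-deficient ones (SD, n = 3 each). Its exact permutation p was 0.1, or 0.2625 after Benjamini-Hochberg adjustment over all pairs compared, so it did not pass. *Brd1*, the other gene of this family, had a log2 fold change of 0.04.

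ING proteins read methylated histone tails for acetyltransferase and deacetylase complexes. *Ing5*, the most abundant, had 2998, 3031 and 2713 normalized read counts in WT and 2938, 2827 and 2403 in hnRNPL-deficient cells, with overlapping groups. *Ing3*, of the TIP60 complex, was higher in all 3 hnRNPL-deficient libraries, with a log2 fold change of 0.31 (adjusted p = 0.124, limma). *Ing4* was listed low, with 45.3, 89.1 and 103.2 for WT, against 107, 151 and 159 in hnRNPL-deficient cells, and its log2 fold change of 0.87 did not pass (95% interval 0.10 to 1.64, adjusted p = 0.140, limma). In GENCODE, 34.9% of the exon bases of *Ing4* are shared with another gene on the same strand, so its count is uncertain. *Ing1* and *Ing2* had log2 fold changes of -0.01 and -0.19.

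BET proteins bind acetylated histones at promoters and enhancers. *Brd2* had 11596, 14959.6 and 15057 normalized read counts in WT and 12877, 15641 and 13047 in hnRNPL-deficient cells. With the groups overlapping, its log2 fold change was 0.00 (95% interval -0.30 to 0.31, adjusted p = 0.992, limma). *Brd3* had a log2 fold change of -0.11, which did not pass. *Brd7*, *Brd8* and *Brd9*, which are subunits of remodeling or acetyltransferase complexes, had log2 fold changes between -0.12 and 0.03. *Brd7*, the most abundant of these, had 4157, 4034 and 3941 in WT and 3804, 3661 and 3668 in hnRNPL-deficient cells. It was lower in every hnRNPL-deficient library without passing the test (adjusted p = 0.395, limma).

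*Baz1b* fell more than any other member. It encodes WSTF, the bromodomain subunit of a remodeling complex that also acts as a histone kinase (chromosome 5, 135187264 to 135246129, plus strand). It had 13438, 14179 and 13237 normalized read counts in WT and 5544, 6590.0 and 6357 in hnRNPL-deficient cells, or 45.3% of the WT mean. No hnRNPL-deficient library came near the WT range. This gave a log2 fold change of -1.15 (SE 0.099, adjusted p = 0.000471, limma), it ranged from -1.20 to -1.07 with each library left out in turn, and *Baz1b* was called in all 20 alternative fits and at 2-fold.

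*Baz1a*, the related subunit of ACF-type remodelers, had 28046, 21589 and 22307 normalized read counts in WT and 19847, 17872 and 24432 in hnRNPL-deficient cells. These overlapped, for a log2 fold change of -0.21 (95% interval -0.55 to 0.12, adjusted p = 0.392, limma). *Baz1a* was the most abundant member per kilobase in WT, at 3349.7 ± 494, against 996 ± 36.3 for *Baz1b*. *Baz1b* therefore made up 23.1% ± 2.81 of their summed level per kilobase in WT, but 13.6% ± 2.23 in hnRNPL-deficient cells (SD, n = 3, exact permutation p = 0.1). The share depends on the length used. With that of the longest coding transcript it was 35.3% ± 3.64 in WT and 22.3% ± 3.26 in hnRNPL-deficient cells. *Baz2a* and *Baz2b* had log2 fold changes of 0.09 and -0.18, and neither passed.

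The WD-repeat bromodomain genes were both higher on average. *Phip* had the most normalized read counts of all members, with 57031, 61944 and 51747 in WT and 70829, 65059 and 91487 in hnRNPL-deficient cells. The groups did not overlap, but the spread between hnRNPL-deficient libraries was wide, and the log2 fold change of 0.40 did not pass (95% interval 0.07 to 0.74, adjusted p = 0.120, limma). *Brwd1*, known for its part in early B cell development, had a log2 fold change of 0.17.

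Of the 11 HDAC genes, 7 had a fold change above 0, as did 8336 of the 17640 tested genes. The 4 with an adjusted p under 0.1 were *Hdac11*, *Hdac9*, *Hdac8* and *Hdac1*, which were higher, where 10.0% of all tested genes were higher and 7.97% lower by that rule. The HDAC genes were not tested as a group. The median log2 fold change of the 11 was 0.10, against -0.03 over all tested genes.

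*Hdac1*, a class I enzyme of the NuRD, Sin3 and CoREST complexes, was the most abundant HDAC. It had 8887, 7858 and 7462 normalized read counts in WT and 11029, 11201 and 8997 in hnRNPL-deficient cells. The groups were apart, although hnRNPL-deficient library 3 was close to WT library 1. This gave a log2 fold change of 0.36 (SE 0.119, adjusted p = 0.0869, limma), under 1.5-fold. *Hdac2*, which sits in the same complexes, had 7262, 5246 and 5079 in WT and 5687, 4877 and 5206 in hnRNPL-deficient cells, for a log2 fold change of -0.14 (adjusted p = 0.572, limma) with overlapping groups. The log2 ratio of *Hdac1* to *Hdac2* was higher in each hnRNPL-deficient library than in each WT library, at 0.98 ± 0.206 against 0.48 ± 0.161 (SD, n = 3 each). *Hdac1* had per kilobase the highest level of all members in hnRNPL-deficient cells, at 3022 ± 356, and the fourth highest in WT, at 2342 ± 214, but this order was not tested. *Baz1a* lay within its SD in hnRNPL-deficient cells, as did *Ncoa3* and *Crebbp* in WT.

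*Hdac8*, the class I enzyme that deacetylates the cohesin subunit SMC3, had 500.2, 596 and 609 normalized read counts in WT and 694, 776 and 917 in hnRNPL-deficient cells. The groups did not overlap (log2 fold change 0.48, SE 0.152, adjusted p = 0.0799, limma). Its relative *Hdac3*, the enzyme of the NCoR complex, had 3610.4, 3619 and 3411 in WT and 3679, 3470.2 and 2829 in hnRNPL-deficient cells. *Hdac3* overlapped between groups, with a log2 fold change of -0.10 (adjusted p = 0.616, limma).

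*Hdac9* was the most abundant class IIa gene per kilobase, at 277 ± 31.6 in WT. It had 4275, 4386 and 3535 normalized read counts in WT and 5232, 5096 and 5694 in hnRNPL-deficient cells, again without overlap. This gave a log2 fold change of 0.40 (SE 0.112, adjusted p = 0.0548, limma), also under 1.5-fold. *Hdac4* had 1615, 2136 and 1901 in WT and 1700.3, 2110.2 and 2110.8 in hnRNPL-deficient cells, with overlap and a log2 fold change of 0.07. *Hdac5* and *Hdac7* had log2 fold changes of -0.03 and 0.19. Among the alternative settings, the lowest adjusted p of *Hdac1*, *Hdac8* and *Hdac9* was 0.0148, 0.0198 and 0.0237. Each also rose above 0.1 in several of these settings, to at most 0.248, 0.178 and 0.179. With each library left out in turn, the limma adjusted p ran from 0.0427, 0.0896 and 0.0685 up to those same values.

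*Hdac11*, the class IV enzyme, known as a regulator of cytokine genes in myeloid cells, rose the most of all members from the lowest level. It had 19.7, 29.4 and 30.6 normalized read counts in WT and 51.4, 90.9 and 64.4 in hnRNPL-deficient cells (chromosome 6, 91156665 to 91174692, plus strand). These values rest on 17 to 40 reads in the WT libraries and 47 to 90 in hnRNPL-deficient ones. By exact 95% Poisson intervals, which cover counting error only, WT library 3 allowed 21.9 to 41.7 and hnRNPL-deficient library 1 allowed 38.9 to 66.6 normalized read counts. No hnRNPL-deficient value overlapped the WT range, for a log2 fold change of 1.33 (SE 0.327, adjusted p = 0.0356, limma). It was not called without hnRNPL-deficient library 2 (1.11, adjusted p = 0.117), nor by edgeR or DESeq2 on the reads of 5 libraries, which leave out the same library (adjusted p = 0.115 and 0.108). On the reads of all 6 libraries, tests added after the data were seen, it was called by edgeR (adjusted p = 0.0310) and by DESeq2 (adjusted p = 0.00538). *Adgre1*, 1 of the 6 myeloid markers, was also higher in hnRNPL-deficient libraries (236 to 315 in WT and 1217 to 1369). It made up most of the summed myeloid markers in both groups (260.0 to 331 in WT and 1239 to 1384 in hnRNPL-deficient libraries), and most of the difference between them. Of the 6 markers, 4 had a mean under 10. The part of *Adgre1* in the *Hdac11* value was not tested. *Hdac6*, the cytoplasmic tubulin deacetylase, had 1431, 1283 and 1273 in WT and 1513, 1412 and 1335 in hnRNPL-deficient cells, with overlap and a log2 fold change of 0.10, and *Hdac10* had a log2 fold change of -0.16.

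**Figure D3:**
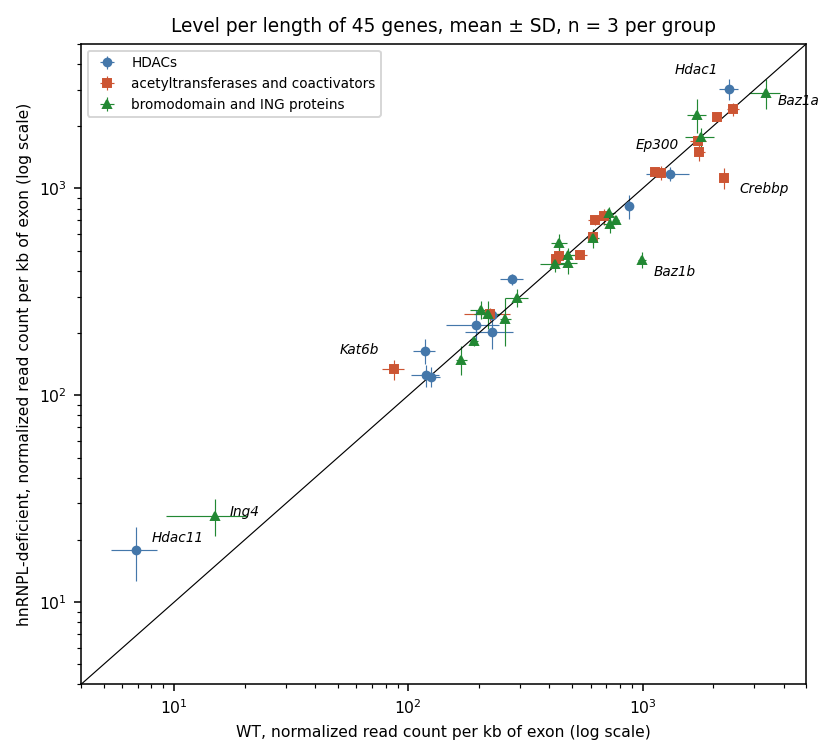
Normalized read count per kilobase of exon in WT (x axis) and hnRNPL-deficient cells (y axis), both on log scales, for 45 of the 46 genes, as mean ± SD with n = 3 per group, and with a line where both are equal. *Crebbp* and *Baz1b* lie below the line among the abundant genes, *Kat6b* lies above it, and *Hdac11* and *Ing4* are the lowest.

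On the scale per kilobase of exon, the members spanned from 6.90 ± 1.55 (*Hdac11*) to 3349.7 ± 494 (*Baz1a*) in WT. *Crebbp* ranked 5 of 46 in WT, at 2234 ± 65.8, and 13 in hnRNPL-deficient cells, at 1127 ± 132. *Baz1b* went from rank 14 to rank 27, at 451 ± 40.2. *Ep300* had 1134 ± 42.1 in WT and 1203 ± 25.3 in hnRNPL-deficient cells, so that in hnRNPL-deficient cells the levels of *Crebbp* and *Ep300* per kilobase differed by less than the SD of *Crebbp*. These lengths count all annotated exons, so levels of genes with long unused exons are understated.

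**Figure D4:**
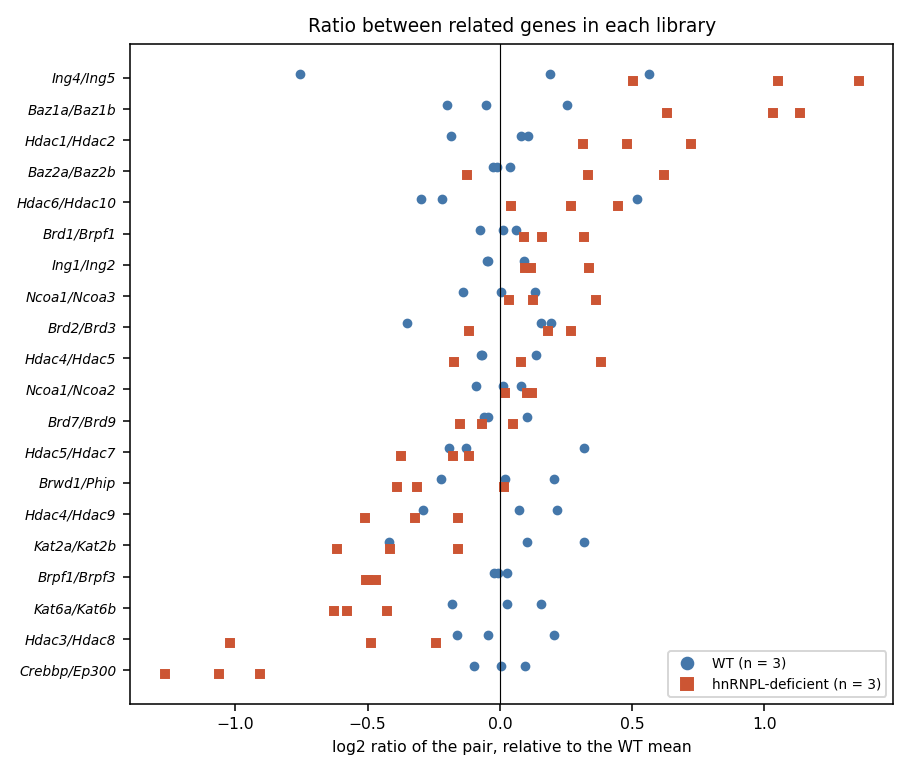
Log2 ratio between the read counts of 20 of 21 pairs of related genes in each library, set relative to the WT mean of that pair (x axis), with 3 points per group. The largest shift is that of *Crebbp* to *Ep300*, with all hnRNPL-deficient libraries to the left of all WT libraries.

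Ratios within 21 pairs of related genes were compared between the groups, with an exact two-sided permutation test over the 6 libraries that cannot give a p below 0.1. In 8 pairs the groups did not overlap, giving p = 0.1 each by the exact test, or 0.2625 after Benjamini-Hochberg adjustment over the pairs, so none passed. Pairs whose log2 ratio moved by more than 0.5 were *Crebbp* to *Ep300* (-1.08), *Ing4* to *Ing5* (0.97), *Baz1a* to *Baz1b* (0.93), *Hdac3* to *Hdac8* (-0.58), *Kat6a* to *Kat6b* (-0.54) and *Hdac1* to *Hdac2* (0.51). In *Ing4* to *Ing5* the groups overlapped, and in the other 5 they did not.

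*Hnrnpl* is on chromosome 7 (28808541 to 28822266), where *Kat8* was the only member, and no member was within 20 Mb of it. Within 500 kb, 26 tested genes neighbour *Crebbp*, of which 2 were called higher and 1 lower. *Baz1b* had 19 such neighbours (1 higher, 1 lower), *Kat6b* had 8 (none higher, 2 lower) and *Hdac11* had 11 (2 higher, 1 lower), where 7.28% of all tested genes were called higher and 4.08% lower.

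Partners of the members were taken from lists of complex subunits and related readers. Of 107 tested partners, 1 was called higher and 2 lower, against 7.28% and 4.08% of all tested genes. Among 37 tested subunits of HDAC co-repressor complexes none was called, and the median log2 fold change was -0.05. Without the fold minimum 4 of the 37 were lower, against 7.97% of all tested genes. Named after their values were seen, they were *Mta1* (-0.49), *Mbd3* (-0.41), *Chd4* (-0.43) and *Zfp217* (-0.39), a zinc finger partner of CoREST. Each was lower in every hnRNPL-deficient library than in any WT library, with limma adjusted p between 0.053 and 0.074. Of the 37, 7 were lower without overlap and 3 higher, against 16.3% and 17.7% of all tested genes.

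Of 44 acetyltransferase complex partners, 1 was called lower and none higher, against 4.08% and 7.28% of all tested genes, and the median was -0.12. That was *Hat1*, which acetylates newly made histone H4, with 8728, 6542 and 6246 normalized read counts in WT and 5089, 4545 and 3813 in hnRNPL-deficient cells. Its groups were apart, with a log2 fold change of -0.67 (SE 0.156, adjusted p = 0.0294, limma). Without the fold minimum 3 of the 44 were higher and 3 lower, *Hat1* included, against 10.0% and 7.97% of all tested genes. Under 1.5-fold but with an adjusted p under 0.1 were *Kansl1* (0.40), *Supt20* (0.33) and *Supt7l* (0.42), which were higher, and *Phf20* (-0.39) and *Msl1* (-0.40), which were lower. These 5 were also named after their values were seen. *Kansl1* and *Phf20* encode subunits of the same *Kat8* complex.

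Of 20 tested bromodomain genes outside the 46, 1 rose and 1 fell, against 7.28% and 4.08% of all tested genes, with a median of 0.02. *Sp140*, a nuclear body protein of lymphoid cells, had 9987, 10922 and 10376 normalized read counts in WT and 5787, 6455 and 5909 in hnRNPL-deficient cells. It was lower in every hnRNPL-deficient library (log2 fold change -0.79, SE 0.092, adjusted p = 0.00191, limma). *Cecr2*, a remodeler subunit, had 1007, 1379.9 and 1258 in WT and 1875, 2172 and 2351 in hnRNPL-deficient cells, with no overlap (log2 fold change 0.82, SE 0.147, adjusted p = 0.0111, limma). *Sp110*, a relative of *Sp140* that was named after its value was seen, had a log2 fold change of -0.29 (adjusted p = 0.0987, limma). None of the 6 genes of nuclear acetyl-CoA supply passed, and their median was -0.15.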

How the data were processed

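Gene expression was measured by RNA-seq in activated B cells from 6 mice (3 per genotype), grouped by their labels. Per the study's methods and the labels, the authors trimmed reads with fastp 0.23.1, aligned them to mm10 with STAR 2.7.9a, and counted strand-specific reads per gene of GENCODE vM23 with featureCounts. The authors deposited these counts divided by DESeq2 1.38.2 size factors (normalized read counts, a signal that need not be whole). The deposited table also holds the authors' own DESeq2 columns (mean, log2 fold change, its standard error, test statistic, p-value and adjusted p-value), which were not used.

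The main test was limma 3.58.1 (R 4.3.3) with its mean-variance trend on log2-transformed normalized counts (pseudocount 1), for genes averaging at least 10. Fold changes are on that log2 scale, which understates the change of low genes. Calls needed a change of at least 1.5-fold with a p under 0.1 after Benjamini-Hochberg adjustment. In all libraries 100% of values were whole reads (within 0.02 reads). The edgeR 4.0.16 (quasi-likelihood, TMM) and DESeq2 1.42.0 tests on these reads at first left out hnRNPL-deficient library 2, whose size factor is close to 1, and tests on the reads of all 6 were an addition made once the data had been seen. On 5 libraries edgeR called 1072 genes higher and 707 lower and DESeq2 1192 and 746. On 6 libraries edgeR called 1452 and 669 and DESeq2 1502 and 817, and the main test called 1284 and 719. The tests were also run on simulated data with the same dispersion for every gene, and nothing here rests on that trial.

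Coordinates and lengths come from GENCODE M21 on GRCm38, which matched 17615 of 17640 tested genes by identifier. Pair ratios and shares were compared with exact permutation tests (Python 3.11.15). All members may be named. Values in every library are given for called members, for those with an adjusted p under 0.1, for the relatives they are paired with and for the most abundant gene of each role, and further ones that show a difference were chosen after their values were seen. Members and lists were chosen with earlier results of these data known. The alternatives were other pseudocounts (0.5 and 5), filters (at least 1, at least 50, none), scalings, variance settings, thresholds, a replicate block, each library left out, and the count tests. The transcript length used for shares was also added after the data were seen. The values of 1 member, and of 1 pair that holds it, are not reported here, although both are counted. Splicing was not analysed here.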

Additional observations from a re-analysis of the deposited data

How the results depend on the processing

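The calls of *Crebbp* and *Baz1b* held in all 20 alternative fits. At an adjusted p under 0.05 and 2-fold, 1 member was lower (*Baz1b*) and 1 higher (*Hdac11*), among 216 lower and 610 higher genes in all. With no fold minimum 5 were higher, among 1766 higher and 1406 lower genes. Only 1 member was called higher with a mean of at least 50, which left *Hdac11* untested, with edgeR and with DESeq2 on 5 libraries. On all 6 libraries, added after the data were seen, edgeR called the same 4 members as limma, and DESeq2 called *Ing4* in addition (adjusted p = 0.0901). With each library left out, 1 to 2 members were called higher and 2 lower. Calls over all genes were 1284 higher and 719 lower, and 850 and 483 without WT library 3. Without WT library 1 or hnRNPL-deficient library 3 *Kat6b* was not called, and without hnRNPL-deficient library 2 *Hdac11* was not.

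With the replicate number as a replicate block, 3 members were called higher and 2 lower, *Ing4* being added (adjusted p = 0.0235, limma). Over all tested genes the block gave 1755 higher and 1018 lower calls, against 1284 and 719 in the main test. Deviations of same-numbered libraries correlated at 0.429, 0.320 and 0.066, and those of differently numbered ones at -0.458 to 0.305. For each hnRNPL-deficient library the same-numbered WT library gave the highest value. The labels do not say whether the numbers pair mice or batches, and the main test did not use them. Whether they do was not tested.

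Of the 46 members, 32 kept the sign of their log2 fold change in all settings. The 14 that did not had values of at most 0.195 from 0 and were called in no setting. Scaling to equal totals gave 0.028 for *Hdac5*, 0.044 for *Ncoa3*, 0.036 for *Ep400*, 0.036 for *Kat7* and 0.046 for *Ing1*. Quantile normalization gave 0.14 for *Ncoa3*, 0.14 for *Ep400*, 0.099 for *Kat7* and 0.00012 for *Ing1*. On 5 libraries the edgeR values were -0.042 for *Brd1* and -0.11 for *Brd2*. The DESeq2 values were -0.027 for *Brd1*, -0.090 for *Brd2* and 0.0093 for *Kat7*. On 6 libraries edgeR gave 0.0022 for *Hdac5*, 0.018 for *Ncoa3*, 0.0091 for *Ep400*, 0.0092 for *Kat7* and 0.021 for *Ing1*, and DESeq2 gave -0.0017 for *Brd2*. With each library left out in turn, values ran from -0.070 to 0.11 for *Brd8*, -0.10 to 0.063 for *Hdac5*, -0.23 to 0.023 for *Hdac2*, -0.067 to 0.13 for *Brd1*, -0.038 to 0.32 for *Hdac7* and -0.12 to 0.067 for *Brd2*. They ran from -0.18 to 0.011 for *Hdac3*, -0.037 to 0.17 for *Hdac4*, -0.36 to 0.022 for *Baz2b*, -0.062 to 0.049 for *Ncoa3*, -0.098 to 0.034 for *Ep400*, -0.052 to 0.045 for *Kat7* and -0.068 to 0.051 for *Ing1*. The cause was not tested. Depth limits *Hdac11* and *Ing4*, which rest on the fewest reads.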

Other observations

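A transcript model within an intron of *Crebbp* was noticed after the values were seen. *Gm37186* lies on the same strand and shares no exon base with *Crebbp*. It had 356, 450.5 and 447 normalized read counts in WT and 425, 662 and 1155 in hnRNPL-deficient libraries, so that the groups overlapped. The log2 fold change of 0.73 did not pass (standard error 0.319, adjusted p = 0.184, limma).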
